A study of Mus musculus with 18 samples.

Results

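Alveolar type 1 (AT1) cell genes were followed in mouse lung organoids and tumoroids carrying an inducible mutant EGFR. They were 10 genes chosen by name as markers of AT1 cells, Ager, Hopx, Aqp5, Pdpn, Akap5, Rtkn2, Cav1, Clic5, Emp2 and Gprc5a, out of 46603 genes measured. Each was found by matching its gene identifier to a symbol of the GENCODE M21 annotation, and all 10 were measured in all 18 cultures. These genes and all marker lists were chosen with earlier results of these data known, so counts of calls among them are descriptive. RNA was sequenced from 10 organoid cultures and 8 tumoroid cultures to compare lung cells of different origin before and after activation of EGFR T790M/L858R. All donor mice carried this human EGFR transgene, with its CAG promoter, at the Col1a1 locus behind a lox-stop-lox cassette, so that any cell type reached by Cre could express it. Trachea gave sorted NGFR- cells (club) and NGFR+ cells (basal), and distal lung gave sorted Sca1- cells (AT2) and Sca1+ cells (bronchioalveolar stem cells, BASC). Each sorted population was split and infected with Ad-GFP, a control adenovirus, or with Ad-Cre, whose recombinase cuts out the stop cassette. The 10 organoid cultures were club, basal, AT2 and mixed BASC cells with each virus, and alveolar and bronchiolar BASC organoids with Ad-Cre, picked from the BASC culture by their shape. The tumoroids were cultured from lung tumors of nude (Foxn1 Nu/Nu) mice that had been given Ad-Cre organoids through the trachea, 3 from AT2 cells, 3 from mixed BASC and 1 from bronchiolar BASC. A further tumoroid came from an autochthonous tumor of a mouse that received Ad-Cre in the lung. Cultures grew in Matrigel together with support cells from lung, so that each library could hold RNA of those cells as well. For the 3 tumoroids of AT2 origin the labels name an NGFR-negative sort, and the stated origin was used. No organoid condition was repeated, so that different populations, and the Ad-GFP and Ad-Cre cultures of the same population, stand in for replicates. The Ad-GFP and Ad-Cre cultures of a population share a sort, and the mixed, alveolar and bronchiolar BASC organoids share the BASC population. Some tumoroids share a title number that may mark a shared mouse. P-values therefore measure the spread between these cultures. Tests between groups of organoids by region or type, exact tests included, counted each culture as independent. Their p-values may therefore be too small. Organoids were sequenced on a HiSeq instrument and tumoroids on a DNBSEQ instrument, so stage and platform cannot be told apart. Ages and sexes of the donors are not given in the sources used here.

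AT1 cells are the thin, flat cells that cover most of the gas-exchange surface of the lung. They arise in the adult mainly from AT2 cells, the surfactant-producing progenitors of the alveolus, through a transitional state rich in keratins. In culture, AT2 cells grown with mesenchymal cells can form organoids that hold AT2 cells together with AT1-like cells. BASC sit where the bronchiole meets the alveolar duct and can give rise to both bronchiolar and alveolar cells. Several genes used to recognise AT1 cells are also made by airway epithelium, basal cells, fibroblasts or endothelium. No purified AT1 cells were among these samples, so levels are given without a reference for a fully differentiated AT1 cell. The libraries are bulk, and a lower level can come from fewer cells of a type or from less RNA per cell, which cannot be told apart.

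The 10 genes encode proteins of several kinds, and their positions are given on GRCm38. Ager (ENSMUSG00000015452, chr17:34597862-34600936, plus strand) encodes RAGE, a receptor that is abundant on the basal surface of AT1 cells. Akap5 (ENSMUSG00000021057, chr12:76324891-76334153, plus strand) encodes a scaffold that anchors protein kinase A. Rtkn2 (ENSMUSG00000037846, chr10:67979570-68059740, plus strand) encodes rhotekin 2, a signalling adaptor protein. Clic5 (ENSMUSG00000023959, chr17:44188584-44280172, plus strand) encodes an intracellular chloride channel protein that links membrane and cytoskeleton. Hopx (ENSMUSG00000059325, chr5:77086988-77115121, minus strand) encodes a small homeodomain protein that does not bind DNA. Emp2 (ENSMUSG00000022505, chr16:10281749-10313968, minus strand) encodes a tetraspan membrane protein. Gprc5a (ENSMUSG00000046733, chr6:135065651-135084709, plus strand) encodes an orphan receptor induced by retinoic acid. Aqp5 (ENSMUSG00000044217, chr15:99590782-99594829, plus strand) encodes a water channel of AT1 cells that airway and gland cells also make. Pdpn (ENSMUSG00000028583, chr4:143267431-143299564, minus strand) encodes podoplanin, a surface glycoprotein of AT1 cells, basal cells, some fibroblasts and lymphatic endothelium. Cav1 (ENSMUSG00000007655, chr6:17306335-17341452, plus strand) encodes caveolin 1, the coat protein of caveolae in AT1, endothelial and mesenchymal cells. The annotation places an antisense gene over 3 members, and whether counting used strand is not stated, so reads of the pairs cannot be told apart. The levels assigned to these partners were at most 1.93 TPM for Hopxos over Hopx, 0.80 TPM for Gm16212 over Rtkn2 and 0.11 TPM for Gm15581 over Cav1. TPM is a level per length, scaled to the same total in each sample, and allows genes to be compared.

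The 250 bases before the start site are shown for 3 members that were highest in alveolar organoids (Ager, Akap5 and Clic5) and for 1 that was lowest there (Pdpn). They are RefSeq sequences on GRCm38.p6, written 5′ to 3′ on the strand of the gene, and capitals mark each CG dinucleotide. The windows are chr17:34597600-34597849 for Ager, chr12:76324641-76324890 for Akap5, chr17:44188322-44188571 for Clic5 (all plus strand) and chr4:143299565-143299814 for Pdpn (minus strand).
Ager: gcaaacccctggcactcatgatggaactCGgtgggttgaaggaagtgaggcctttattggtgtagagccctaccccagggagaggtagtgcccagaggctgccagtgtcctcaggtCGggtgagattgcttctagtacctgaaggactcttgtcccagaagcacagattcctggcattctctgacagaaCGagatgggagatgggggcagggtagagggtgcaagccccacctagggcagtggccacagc
Akap5: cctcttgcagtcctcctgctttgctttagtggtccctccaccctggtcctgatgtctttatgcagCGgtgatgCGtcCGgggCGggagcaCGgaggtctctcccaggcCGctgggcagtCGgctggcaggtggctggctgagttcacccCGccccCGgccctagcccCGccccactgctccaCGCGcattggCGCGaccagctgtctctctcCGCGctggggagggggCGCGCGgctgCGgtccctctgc
Clic5: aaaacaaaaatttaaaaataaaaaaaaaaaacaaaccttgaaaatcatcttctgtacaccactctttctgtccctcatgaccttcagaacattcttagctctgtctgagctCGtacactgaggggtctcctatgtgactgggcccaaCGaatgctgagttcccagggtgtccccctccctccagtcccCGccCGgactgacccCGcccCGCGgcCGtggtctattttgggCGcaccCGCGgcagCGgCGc
Pdpn: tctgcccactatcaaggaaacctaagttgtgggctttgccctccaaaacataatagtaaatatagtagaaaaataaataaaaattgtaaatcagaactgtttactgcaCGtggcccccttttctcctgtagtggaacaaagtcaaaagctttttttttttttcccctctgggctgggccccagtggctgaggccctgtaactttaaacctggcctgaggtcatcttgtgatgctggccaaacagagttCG
The Ager window held 3 CG and the Pdpn window 2, fewer than the median of 6 over 32851 mouse promoter windows, while Clic5 held 13 and Akap5 held 20. The members that were highest in alveolar organoids therefore did not share a CG density. RefSeq windows were matched for 8 of the 10 members, in 10 windows since Hopx and Cav1 have 2 each, and not for Rtkn2 and Gprc5a. Motifs of 4 factor families were searched on both strands. The TEAD motif GGAATG was in 0 of the 10 windows and in 12.6% of all windows. For CAAGTG, the motif of NKX2-1, the numbers were 0 and 11.6%. For AGATAA, bound by GATA factors, they were 0 and 9.99%. For TGANTCA, the AP-1 motif, they were 0 and 6.75%. An absent match says only that these letters are not in the window.

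Organoid libraries summed to between about 27772600 and 97191600 expected counts, and tumoroid libraries, which were shallower, to between about 15327200 and 23355900. Marker genes were checked against the labels. Sftpc, the surfactant gene that defines AT2 cells, stood between 60435 and 61211 TPM in the AT2 and alveolar BASC organoids, between 228 and 1525 TPM in the mixed and bronchiolar BASC organoids and between 3.17 and 62.8 TPM in the tracheal organoids. Scgb1a1, the secretoglobin that defines club cells, was at most 18.4 TPM in the tracheal cultures, the library labelled club included, while Krt5, a keratin of basal cells, was between 1549 and 2063 TPM in all 4. The club list as a whole was high there. Its 11 genes, Scgb1a1 included, summed to 21487 to 25844 TPM in tracheal organoids and to 1372 to 3417 TPM in AT2 and alveolar BASC organoids. Of the endothelial markers, Cdh5 was at most 0.08 TPM and Pecam1 at most 4.55 TPM in any culture, and the 13 genes of that list summed to 3.69 to 50.5 TPM, highest in AT2-derived tumoroid 3, while the leukocyte gene Ptprc reached at most 0.91 TPM. Fibroblast RNA was present in all cultures, with Col1a2 between 40.6 and 977 TPM, except that Tcf21 of that list of 15 markers was never above 0.06 TPM. The summed level of the fibroblast list was 676 to 723 TPM in tracheal organoids, 745 to 1702 TPM in mixed and bronchiolar BASC organoids, 2203 to 4155 TPM in AT2 and alveolar BASC organoids and 183 to 4247 TPM in tumoroids from transplants.

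Ager spanned the widest range of levels. It was at 3.94 and 3.54 TPM in club organoids with Ad-GFP and Ad-Cre and at 3.06 and 3.39 TPM in the basal pair. It was at 1693 and 2283 TPM in the AT2 pair and at 2602 TPM in alveolar BASC organoids. Mixed BASC organoids had 32 TPM with Ad-GFP and 83.8 TPM with Ad-Cre, and bronchiolar BASC organoids had 244 TPM. The 3 kinds of organoid culture did not overlap, and the share of all genes split in this way was not counted. The highest of the 18 levels was 1346 times the lowest. In tumoroids Ager was at 2475, 3018 and 718 TPM in the AT2-derived cultures, at 2205, 2575 and 3944 TPM in the mixed BASC-derived cultures, at 283 TPM in the bronchiolar BASC-derived culture and at 4119 TPM in the autochthonous one. By group mean the order was tracheal organoids (3.48 ± 0.365 TPM, SD, n = 4), mixed and bronchiolar BASC organoids (120 ± 111 TPM, n = 3), AT2-derived tumoroids (2070 ± 1202 TPM, n = 3), AT2 and alveolar BASC organoids (2193 ± 461 TPM, n = 3) and mixed BASC-derived tumoroids (2908 ± 916 TPM, n = 3). Any pair of the last 3 groups differed by less than the larger SD of the pair. In AT2 and alveolar BASC organoids Ager lay above at least 99.8% of the genes with a TPM above 0, and in tracheal organoids above 48.1 to 50.6%.

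**Figure D1:**
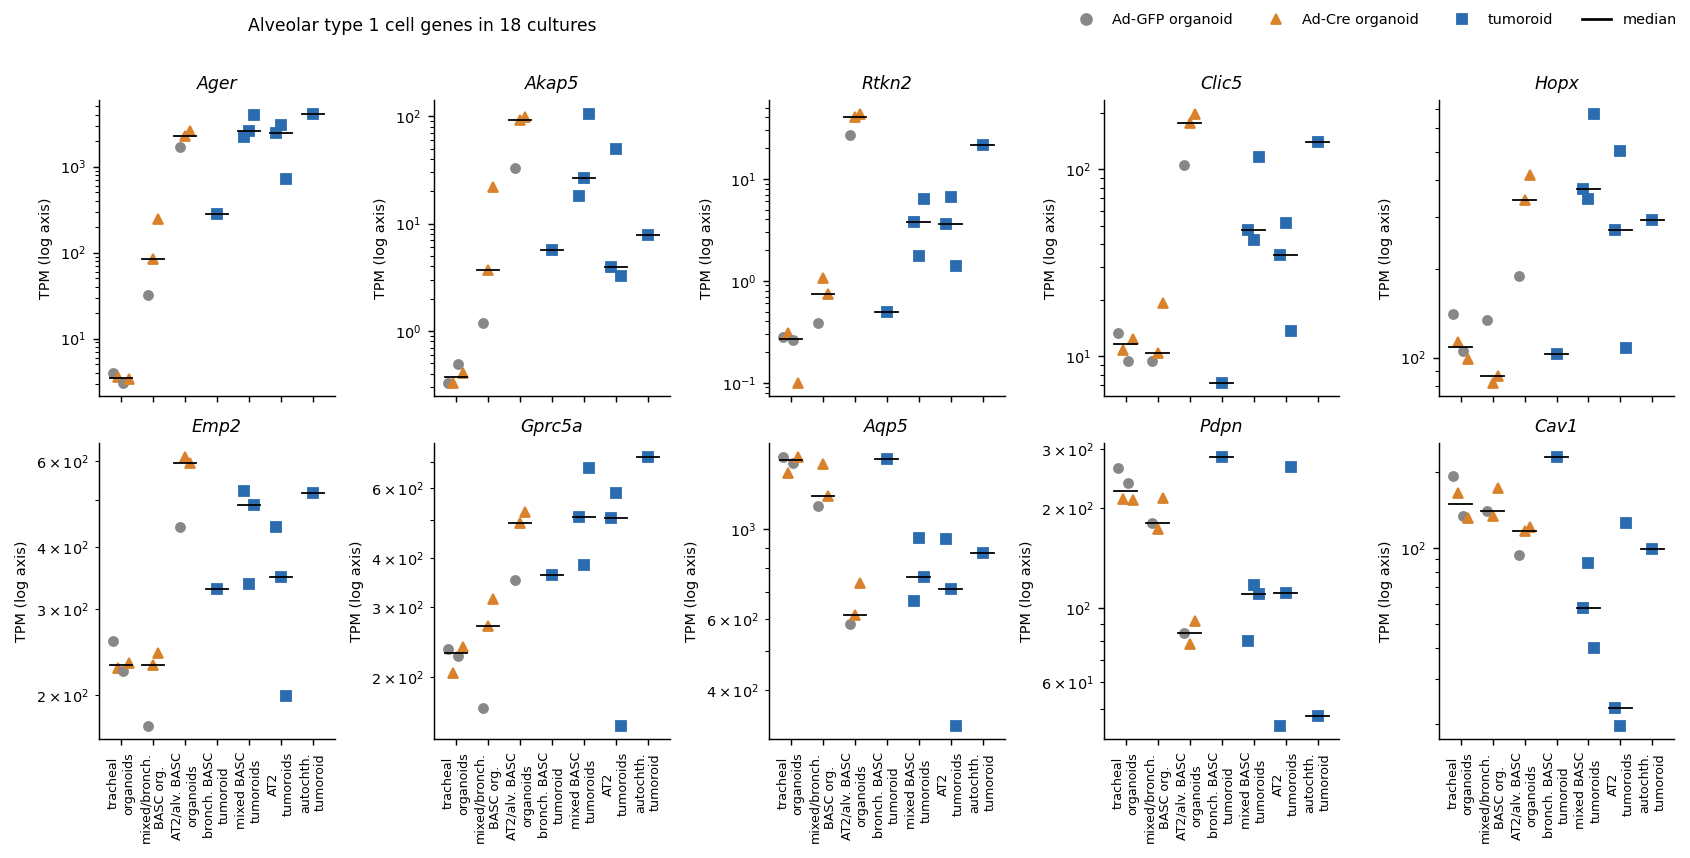
TPM of the 10 genes on log axes by group of cultures, 1 point per culture, with grey circles for Ad-GFP organoids, orange triangles for Ad-Cre organoids, blue squares for tumoroids and a black line at the group's median. Ager, Akap5, Rtkn2, Clic5, Hopx, Emp2 and Gprc5a are highest among organoids in the AT2 and alveolar BASC cultures, while Aqp5, Pdpn and Cav1 are lowest there.

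Akap5 and Rtkn2 followed Ager among the organoids, with Rtkn2 an exception in the bronchiolar culture. Clic5 was also highest in AT2 and alveolar BASC organoids but lay near the tracheal level in mixed BASC organoids, unlike Ager. Akap5 was at 0.33 to 0.49 TPM in the 4 tracheal cultures, at 1.19, 3.72 and 21.8 TPM in mixed Ad-GFP, mixed Ad-Cre and bronchiolar Ad-Cre BASC organoids, and at 32.8, 92.1 and 97.7 TPM in AT2 Ad-GFP, AT2 Ad-Cre and alveolar BASC organoids. Rtkn2 was at 0.10 to 0.31 TPM in tracheal cultures (9 to 20 counts), at 0.39, 1.06 and 0.75 TPM in the same BASC cultures, and at 26.7, 40.1 and 43.5 TPM in the alveolar ones. The bronchiolar BASC organoids thus carried Ager and Akap5 well above the tracheal range, with Rtkn2 below 1 TPM. Clic5 was at 9.48 to 13.3 TPM in tracheal cultures, at 9.41, 10.4 and 19.4 TPM in mixed and bronchiolar BASC organoids, and at 106, 177 and 199 TPM in the alveolar ones. Hopx, Emp2 and Gprc5a were present in every culture and differed less. Hopx was at 98.6 to 141 TPM in tracheal organoids, 82.2 to 134 TPM in mixed and bronchiolar BASC organoids and 190 to 416 TPM in the alveolar ones. Emp2 was at 224 to 259, 173 to 244 and 441 to 612 TPM in the same groups, and Gprc5a at 205 to 238, 167 to 314 and 351 to 522 TPM. Tracheal and mixed or bronchiolar BASC cultures overlapped for these 3 genes and for Clic5, and the alveolar cultures stood above both groups. Between alveolar and mixed or bronchiolar organoids 59.0% of all genes did not overlap, and the share apart from both groups was not counted.

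Aqp5, Pdpn and Cav1 went the other way. Aqp5 was at 1383 to 1513 TPM in tracheal organoids, 1146 to 1452 TPM in mixed and bronchiolar BASC organoids and 584 to 738 TPM in AT2 and alveolar BASC organoids. Pdpn was at 211 to 263, 173 to 214 and 78.0 to 91.5 TPM, and Cav1 at 131 to 193, 133 to 172 and 93.6 to 121 TPM, in the same order. For Aqp5, Pdpn and Cav1 the alveolar organoids lay below both other groups, which overlapped each other. The share of all genes with such a pattern was not counted. A high level of these 3 genes was therefore shared with airway cultures that had almost no Ager, Akap5 or Rtkn2. The tracheal cultures held at most 3.94 TPM of Ager beside Aqp5 at a level above at least 99.6% of the genes detected in them.

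Whether cultures of distal lung cells carried more AT1 gene RNA than tracheal ones was tested with edgeR's quasi-likelihood test, 6 against 4 cultures, on expected counts. Of the 10 genes, 0 passed an adjusted p of 0.05, beside 0.276% of the 18103 genes tested. At an unadjusted p below 0.05, 5371 of all genes and 7 of the members passed, and DESeq2 called 4 members, beside 20.9% of all genes. On the log2 scale Ager stood 8.36 ± 1.57 (SE) higher in distal cultures (adjusted p = 0.0551), Akap5 by 7.21 ± 1.43 (adjusted p = 0.0600) and Rtkn2 by 6.57 ± 1.72 (adjusted p = 0.0677), and the groups did not overlap for these 3, beside 10.5% of all genes without overlap. In exact two-sided permutation tests of log2(TPM + 1), run on each of the 10 members, p was 0.00952 for Ager and Akap5, where 6 against 4 cultures allow 0.00476 at the lowest, 0.0381 for Rtkn2 and 0.0429 for Aqp5 and Pdpn, and the other 5 were above 0.05. The distal group held both alveolar cultures and mixed or bronchiolar ones. Without the mixed BASC Ad-GFP culture 5 members were called higher, beside 31.9% of all genes, and these were Ager, Akap5, Rtkn2, Clic5 and Gprc5a. Of 22 further AT1 genes 1 was called higher in the distal group, Scnn1b, a subunit of the epithelial sodium channel (6.18 ± 0.98), and of 6 smooth muscle genes 1, Tagln (1.53 ± 0.21).

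Each kind of distal culture was then set against the tracheal ones. AT2 and alveolar BASC organoids alone differed from the 4 tracheal cultures in 9 of 10 members, 7 of them higher, beside 67.0% of all genes. Ager was higher by 9.29 on the log2 scale (adjusted p = 1.86e-07), Akap5 by 8.05 and Rtkn2 by 7.57, while Pdpn was at -1.28 and Aqp5 at -1.01, both called lower. Cav1 was at -0.39 (adjusted p = 0.0534). Mixed and bronchiolar BASC organoids differed from the tracheal cultures in 1 member, beside 0.341% of all genes. This was Ager, higher by 4.91 (adjusted p = 0.0361), with Akap5 at 4.74 (adjusted p = 0.0807) and Rtkn2 at 1.77 (adjusted p = 0.136). The other members stood between -0.27 and 0.17.

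Within distal lung organoids, the 3 alveolar cultures (AT2 with either virus and alveolar BASC) were compared with the 3 mixed and bronchiolar BASC cultures. Of the members, 8 passed, beside 42% of the 18070 genes tested. 6 rose in the alveolar cultures, beside 21.7% of all genes, and 2 fell, beside 20.3%. The median log2 fold change was 1.63 over the members and -0.04 over all genes. Rtkn2 rose by 5.74 ± 0.47 on the log2 scale (adjusted p = 0.000877), Ager by 4.35 ± 0.77 (adjusted p = 0.00656) and Clic5 by 3.77 ± 0.39 (adjusted p = 0.00139). Hopx rose by 1.78 ± 0.36, Emp2 by 1.49 ± 0.21 and Gprc5a by 1.01 ± 0.28. Akap5 stood at 3.29 ± 1.09 and missed the threshold (adjusted p = 0.0523). Without the bronchiolar BASC culture, which held most Akap5 among the mixed and bronchiolar ones, it was called at 5.05 (adjusted p = 0.0120), and without the mixed BASC Ad-GFP culture at 2.76 (adjusted p = 0.0494).

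Pdpn fell by 1.04 ± 0.14 on the log2 scale (adjusted p = 0.00300) and Aqp5 fell by 0.84 ± 0.19 (adjusted p = 0.0164), while Cav1 was at -0.39 ± 0.18 (adjusted p = 0.123). Levels of all 10 members did not overlap between the 2 groups, beside 59.0% of all genes, and an exact test of 3 against 3 cannot go below p = 0.10. Aqp5 lost its call without the AT2 Ad-GFP (adjusted p = 0.0653), AT2 Ad-Cre (0.0700) or mixed BASC Ad-Cre culture (0.0516). Gprc5a lost its call without the AT2 Ad-Cre (adjusted p = 0.0858), alveolar BASC (0.0779) or mixed BASC Ad-Cre culture (0.0712).

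**Figure D2:**
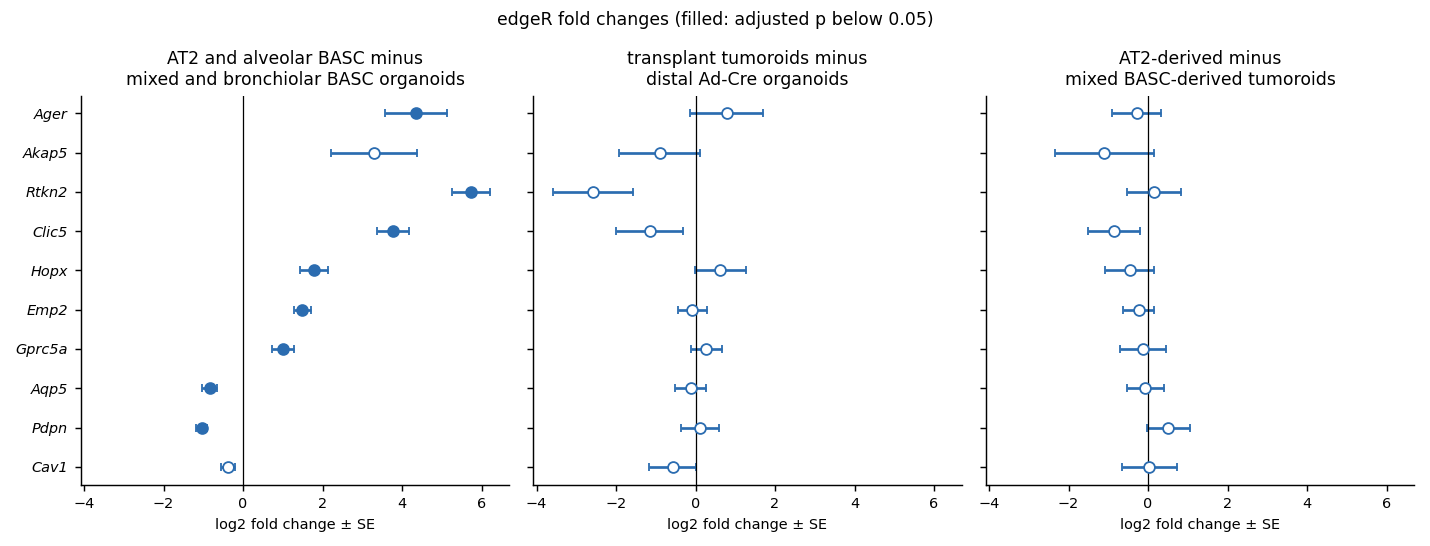
Log2 fold change with its SE for the 10 genes in 3 comparisons by edgeR, with filled points where the adjusted p was below 0.05. In the left panel 6 genes lie to the right and 2 to the left with filled points, and no point is filled in the tumoroid panels.

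Other genes named for AT1 cells moved in part with the members. Of 22 further AT1 genes, 12 rose, 2 fell and 8 did not pass, with a median log2 fold change of 1.38. Ndnf, a secreted neurotrophic factor, rose by 5.12 ± 0.83 and Cldn18, a tight junction claudin, by 4.92 ± 0.98. The genes that fell were Krt7 (-2.65 ± 0.38), a keratin of simple epithelia, and Lama3 (-1.79 ± 0.42), a laminin chain, both named here because they were the exceptions. Of 14 genes of the transitional state between AT2 and AT1 cells, 0 rose, 11 fell and 3 did not pass, with a median of -1.78. Cldn4, another claudin, fell by 4.55 ± 0.49 and Sprr1a, a cornified envelope protein, fell by 3.46 ± 0.51. Several of these transitional genes are also made by airway epithelium.

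Markers of other cell types moved in the same comparison. Of 15 AT2 markers, 14 rose (Sftpc by 6.56 ± 0.98 and Hc by 5.87 ± 0.75), and of 14 fibroblast markers tested, 11 rose (Col6a1 by 2.83 ± 0.29 and Col6a2 by 2.62 ± 0.28). 4 of 7 smooth muscle genes rose as well (Des by 2.43 ± 0.68 and Myh11 by 2.37 ± 0.26). Des was at most 0.33 TPM in any culture. The smooth muscle list summed to 171 to 230 TPM in the alveolar and 122 to 179 TPM in the mixed and bronchiolar cultures. Of the airway lists, 7 of 11 club genes (Scgb3a1 by -6.59 ± 1.16 and Gabrp by -5.50 ± 0.96), 10 of 12 basal genes (Dsg3 by -6.02 ± 1.56 and Krt17 by -5.99 ± 1.84) and 6 of 11 ciliated genes (Foxj1 by -4.92 ± 1.35 and Mcidas by -4.65 ± 1.51) fell, and 1 basal gene rose. The part of these cells in the values of the AT1 genes was not tested. Endothelial, lymphatic endothelial and immune lists had 6, 3 and 5 genes that could be tested, of which 3, 1 and 1 rose and 0, 1 and 2 fell. Those with the largest changes were Erg (5.80 ± 1.03) and Egfl7 (2.34 ± 0.26), Flt4 (-3.27 ± 0.56) and Lyve1 (1.20 ± 0.38), and Ptprc (4.52 ± 0.52) and Itgam (-3.55 ± 0.61). The endothelial list summed to at most 20.8 TPM in the alveolar and 5.03 TPM in the mixed and bronchiolar cultures. In the mesothelial list 2 of 3 fell, Upk1b (-5.73 ± 1.43) and Msln (-4.40 ± 0.63), and the rest of that list was at most 0.24 TPM.

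The effect of Ad-Cre was tested in the 4 populations that were given both viruses, with the population as a block. Of the members, 0 passed, beside 0.0% of 17749 genes. At an unadjusted p below 0.05, 350 of all genes and 1 member passed, and DESeq2 called 5 genes, none of them a member. The member was Akap5, higher with Ad-Cre by 1.02 ± 0.35 on the log2 scale (adjusted p = 0.994). Its Ad-Cre minus Ad-GFP difference in log2(TPM + 1) was 1.46 in AT2 and 1.11 in mixed BASC organoids, against 0.00 in club and -0.08 in basal organoids. Ager differed by 0.43 in AT2 and 1.36 in mixed BASC organoids, against -0.12 and 0.11 in the tracheal pairs. Emp2, Gprc5a, Rtkn2 and Clic5 were also higher with Ad-Cre in both distal pairs, by 0.13 to 0.73, while Hopx was at 0.85 in AT2 and -0.70 in mixed BASC organoids. The share of all genes higher in both distal pairs was not counted. Over the 4 populations the median log2 fold change by edgeR was 0.22 for the members and -0.01 for all genes. It was 0.36 for AT2 markers, 0.22 for club markers, -0.03 for basal markers and -0.72 for ciliated markers.

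The difference between the distal and the tracheal effect of Ad-Cre was tested as an interaction. By edgeR it was 1.65 ± 0.25 on the log2 scale for Akap5 (adjusted p = 0.407) and 0.64 ± 0.20 for Gprc5a (adjusted p = 0.973). The unadjusted p was below 0.05 for these 2 genes and above it for the other 8. The number of all genes below that p was not counted, so the 2 cannot be set beside a share. None of the members and 0 of 19178 genes passed an adjusted p of 0.05 in this edgeR test. With 1 culture of each kind, a difference between 2 cultures of a population cannot be told apart from the virus.

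**Figure D3:**
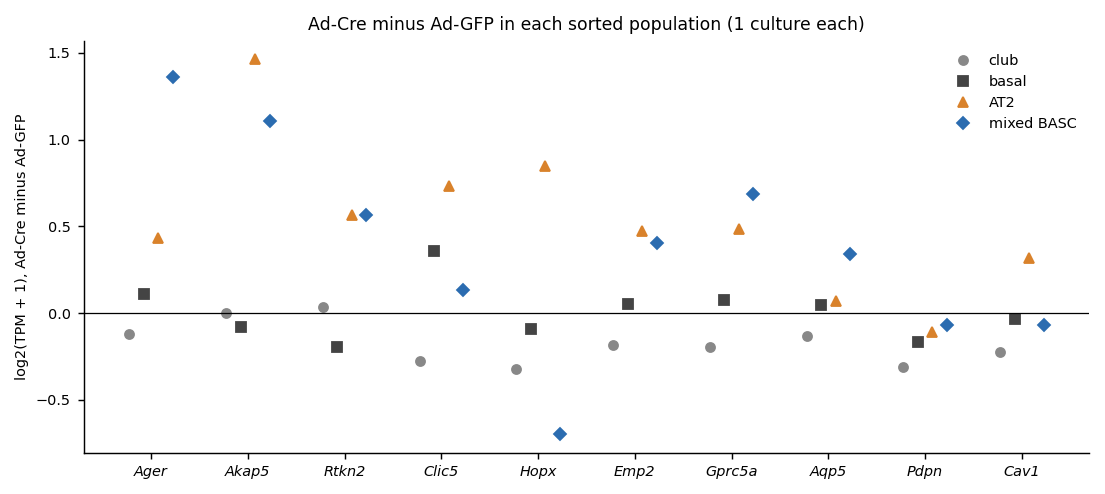
Difference in log2(TPM + 1) between the Ad-Cre and the Ad-GFP culture of each sorted population for the 10 genes, 1 point per population and no error since each culture was made once. Akap5 lies at 1.46 and 1.11 in the AT2 and mixed BASC pairs and near 0 in the club and basal pairs.

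Tumoroids from transplants were compared with distal Ad-Cre organoids, 7 against 4. Of the members, 0 passed, beside 19.6% of 16139 genes, and the median log2 fold change was -0.10 over the members and 0.00 over all genes. DESeq2 called 1 member, Rtkn2 (-2.56, adjusted p = 0.0298), beside 28.7% of all genes. With edgeR 1 member had an unadjusted p below 0.05, beside 5537 of all genes. This was Rtkn2, at -2.58 ± 1.02 (adjusted p = 0.0967), with 3.60, 6.58 and 1.39 TPM in AT2-derived, 3.77, 1.77 and 6.29 TPM in mixed BASC-derived and 0.50 TPM in bronchiolar BASC-derived tumoroids. The 6 AT2- and mixed BASC-derived tumoroids thus lay below all 3 alveolar organoid cultures (26.7 to 43.5 TPM) and above the mixed and bronchiolar ones. Ager stood at 0.79 ± 0.92, Hopx at 0.62 ± 0.64, Gprc5a at 0.27 ± 0.39 and Pdpn at 0.12 ± 0.48. Emp2 was at -0.08 ± 0.37, Aqp5 at -0.12 ± 0.39, Cav1 at -0.58 ± 0.60, Akap5 at -0.91 ± 1.02 and Clic5 at -1.15 ± 0.84. In this comparison 1 of 22 further AT1 genes fell, Igfbp2 by 1.89 ± 0.60, an insulin-like growth factor binding protein made by mature AT1 cells, and 0 of the 14 transitional genes passed. Markers of other cells moved as well, and their part in the values was not tested. Of the fibroblast list 3 of 14 fell (Postn at -2.59 ± 0.63 and Lum at -2.05 ± 0.38), and of smooth muscle genes 2 of 6 (Myh11 at -2.36 ± 0.70 and Lmod1 at -1.88 ± 0.56). Of the ciliated list 3 of 7 fell (Dynlrb2 at -4.72 ± 0.69 and Rsph1 at -3.07 ± 0.80), and so did Krt17 of the basal list (-7.93 ± 1.66) and Hc of the AT2 list (-4.77 ± 1.31). Pecam1 of the endothelial list rose by 2.61 ± 0.73. With cell origin as a block and without the alveolar BASC organoids, a comparison added after the data were seen, Rtkn2 was at -1.35 (adjusted p = 0.412) and 0 members were called, beside 6.98% of all genes. Ager was at 83.8 TPM in mixed BASC Ad-Cre organoids and 2205 to 3944 TPM in tumoroids of that origin. For AT2 it was at 2283 TPM and 718 to 3018 TPM, and for bronchiolar BASC at 244 and 283 TPM. Rtkn2 was at 1.06 TPM in mixed BASC, 40.1 TPM in AT2 and 0.75 TPM in bronchiolar BASC Ad-Cre organoids. Whether the change differed between origins was not tested.

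The 6 AT2- and mixed BASC-derived tumoroids were also set against the 3 alveolar organoid cultures. Of the members, 1 passed, beside 21.7% of all genes. This was Rtkn2, at -3.15 (adjusted p = 0.00219), with Clic5 at -1.61 (adjusted p = 0.0556) and Ager at 0.25 (adjusted p = 0.738). Clic5 was at 34.7, 51.8 and 13.6 TPM in AT2-derived and at 47.3, 42.1 and 117 TPM in mixed BASC-derived tumoroids, so that 5 of the 6 lay below the alveolar organoids (106 to 199 TPM). AT2-derived tumoroid 3 had the highest fibroblast marker sum of the 18 cultures, 4247 TPM. Without it, in a comparison added after the data were seen, 3 members were lower, beside 27.9% of all genes, namely Rtkn2 (-2.99, adjusted p = 0.00186), Clic5 (-1.41, adjusted p = 0.0293) and Cav1 (-1.24, adjusted p = 0.0426). Rtkn2 also passed against the 2 alveolar Ad-Cre cultures alone (-3.35, adjusted p = 0.00892), another comparison added after the data were seen.

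Ager and Rtkn2 therefore kept different ratios in organoids and tumoroids. Ager TPM was 57.0 to 63.3 times Rtkn2 TPM in the 3 alveolar organoid cultures and 459 to 1455 times in the 7 tumoroids from transplants, without overlap. The ratio was 191 in the autochthonous tumoroid. Stage and platform cannot be told apart in these ratios, and Rtkn2 had only 18 counts in the bronchiolar BASC-derived tumoroid. In the bronchiolar BASC organoids the ratio was 325, in the mixed BASC organoids 79.1 and 82.1. Set against Sftpc, Ager stood at 27.7, 37.8 and 42.7 TPM per 1000 TPM of Sftpc in the AT2 Ad-GFP, AT2 Ad-Cre and alveolar BASC organoids, and at 20.1 to 121 in the 6 AT2- and mixed BASC-derived tumoroids. Where Sftpc was low the ratio varied widely, with 702 in bronchiolar BASC organoids, 140.3 and 55.0 in mixed BASC organoids with Ad-GFP and Ad-Cre, and 56.4 to 1069 in tracheal organoids, which had at most 62.8 TPM of Sftpc.

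**Figure D4:**
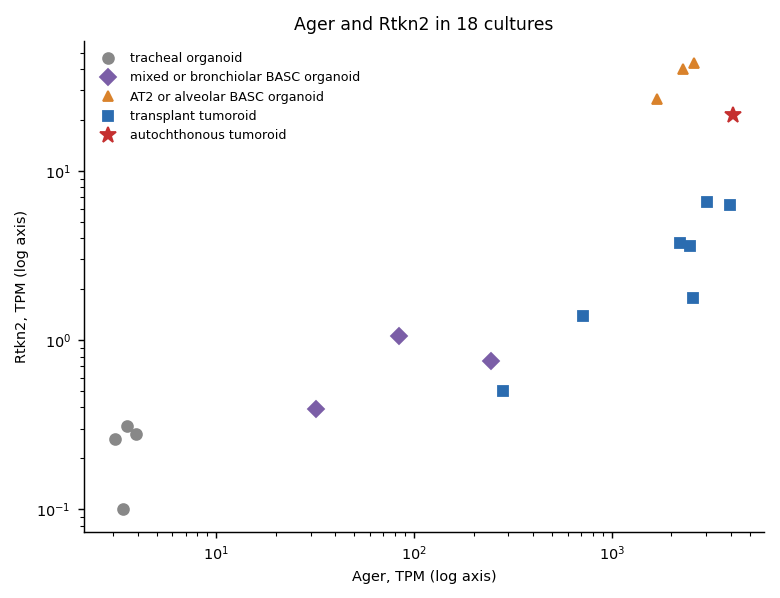
Rtkn2 against Ager in TPM on log axes, 1 point for each of the 18 cultures. Of the 7 transplant tumoroids (blue squares), 5 lie at 2205 to 3944 TPM of Ager with 1.77 to 6.58 TPM of Rtkn2, where AT2 and alveolar BASC organoids (orange triangles) have 26.7 to 43.5 TPM of Rtkn2 and the autochthonous tumoroid (red star) has 21.6 TPM.

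AT2-derived and mixed BASC-derived tumoroids, 3 of each, were compared for an effect of origin. Of the members, 0 passed, beside 0.0% of 15470 genes. At an unadjusted p below 0.05, 144 of all genes and 0 members passed, and DESeq2 called 7 genes, none of them a member. Log2 fold changes of the members lay between -1.10 ± 1.25 for Akap5 and 0.51 ± 0.54 for Pdpn. With 1 tumoroid per title number the sign turned for 9 of the 10 members, with Akap5 at 0.46 and Pdpn at -0.0910. The level of Akap5 varied most among cultures of 1 origin, with 3.95, 49.5 and 3.27 TPM in AT2-derived and 18.2, 26.5 and 106 TPM in mixed BASC-derived tumoroids. An exact test of 3 against 3 cannot go below p = 0.10.

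AT2-derived tumoroid 3 stood apart from the other AT2-derived tumoroids. It had 718 TPM of Ager against 2475 and 3018 TPM, 151 TPM of Gprc5a against 505 and 583 TPM, and 200 TPM of Emp2 against 440 and 348 TPM. Pdpn was higher in it, at 265 TPM against 44.5 and 111 TPM, and so was Cav1, at 126 TPM against 23.1 and 19.6 TPM. Its fibroblast list summed to 4247 TPM against 435 and 183 TPM, and its Col1a2 was at 977 TPM. It was also the shallowest of the 18 libraries, with about 15327200 expected counts. Its smooth muscle and endothelial lists summed to 357 and 50.5 TPM, the highest of the 18 cultures. The part of fibroblast, smooth muscle or endothelial RNA or of depth in these values was not tested. Without this culture the log2 fold change between the origins was 0.15 for Ager, -0.15 for Pdpn and -1.06 for Cav1, each with its sign turned, and 0 members were called.

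The bronchiolar BASC-derived tumoroid is a single culture and was set, with no test, beside the range of the 6 AT2- and mixed BASC-derived tumoroids. Its title number was that of mixed BASC-derived tumoroids 2 and 3, which may mark a shared mouse. The bronchiolar culture lay outside the range of the 6 for 7 of the 10 members, beside 35.1% of the 14694 genes with a mean of at least 1 TPM. Ager (283 TPM), Hopx (103 TPM), Rtkn2 (0.50 TPM) and Clic5 (7.23 TPM) lay below the lowest of the 6, which had 718, 108, 1.39 and 13.6 TPM. Aqp5 (1492 TPM), Pdpn (284 TPM) and Cav1 (230.25 TPM) lay above the highest of the 6, which had 953, 265 and 126 TPM. Akap5 (5.65 TPM), Emp2 (329 TPM) and Gprc5a (362 TPM) lay inside. The same culture held 8473 TPM of Scgb1a1 and 102.6 TPM of Krt5, and its fibroblast list summed to 740.4 TPM, inside the range of the 6.

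The autochthonous tumoroid is also a single culture. It lay outside the range of the 6 for 4 of the 10 members, beside 28.1% of 14655 genes, and above it for all 4. These were Ager (4119 TPM, highest of the 6 at 3944 TPM), Rtkn2 (21.6 TPM, highest at 6.58 TPM), Clic5 (141 TPM, highest at 117 TPM) and Gprc5a (720.2 TPM, highest at 675 TPM). Akap5 was at 7.87 TPM, below the median of the 6 (22.3 TPM). Aqp5 and Pdpn, at 874 and 47.6 TPM, were inside the range. Its Sftpc level of 117673 TPM was inside the range of the 6 tumoroids (21223 to 123104 TPM).

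Likeness to other genes was described with Spearman's rank correlation, separately over the 10 organoids and the 8 tumoroids. Cultures of a set share a platform but differ in depth and cell composition, and the part of these differences in the correlations was not tested. With the summed AT2 markers, Ager had a rank correlation of 0.94 in organoids and 0.71 in tumoroids, Rtkn2 0.93 and 0.81, Emp2 0.68 and 0.81, and Gprc5a 0.72 and 0.69. Akap5 had 0.84 in organoids and 0.10 in tumoroids. Pdpn had -0.82 and -0.83, and Cav1 -0.52 and -0.69. With the fibroblast list, Ager had 0.93 in organoids and -0.38 in tumoroids, Rtkn2 0.92 and -0.45, and Cav1 -0.54 and 0.71. The sign of the relation to fibroblast RNA differed between organoids and tumoroids for 9 of the 10 members, and for Aqp5 it was negative in both. Aqp5 was positive with club (0.55 and 0.57), basal (0.73 and 0.67) and ciliated (0.58 and 0.71) markers in both sets, and Cav1 with club markers (0.72 and 0.55). With smooth muscle markers Cav1 had -0.39 in organoids and 0.71 in tumoroids. Pdpn was positive with club, basal and ciliated markers in organoids (0.61, 0.81 and 0.60). In tumoroids these values for Pdpn were 0.00, -0.33 and 0.10.

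**Figure D5:**
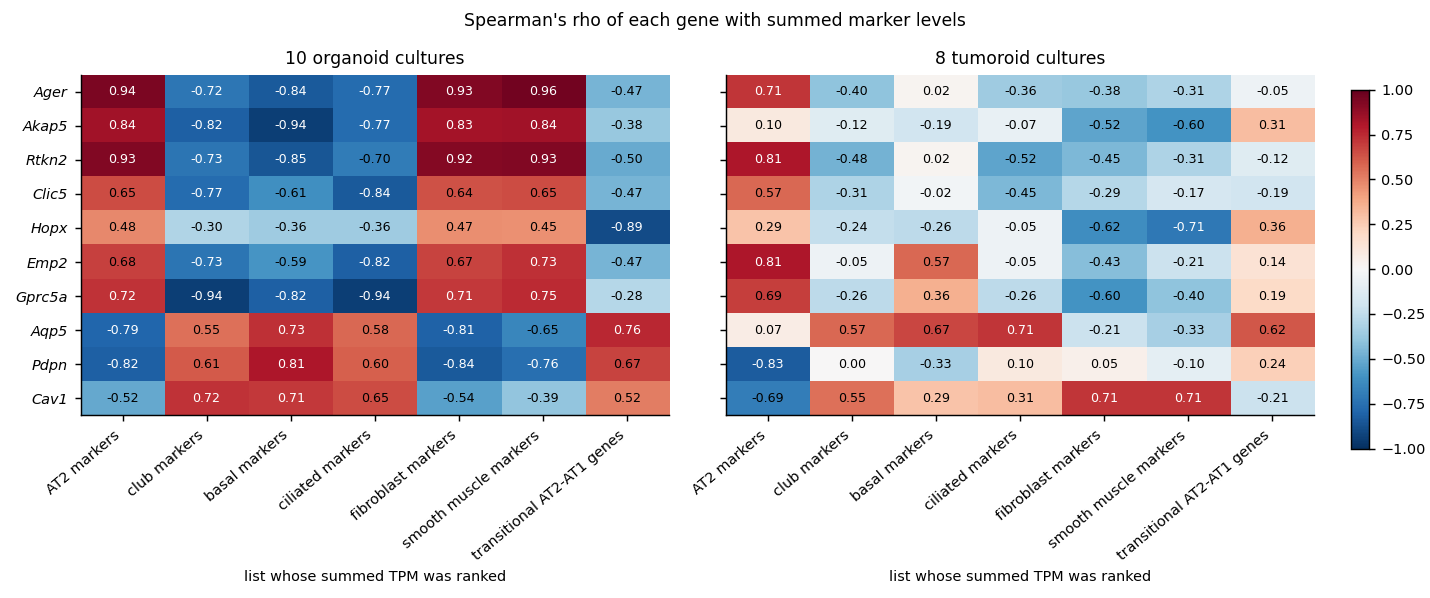
Spearman's rank correlation between each gene's log2 CPM and the summed TPM of 7 gene lists over 10 organoids (left) and 8 tumoroids (right), red for positive and blue for negative. Aqp5 is positive with club, basal and ciliated markers in both panels, and the fibroblast column turns from red to blue for 7 members.

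The genes with the highest value of the lower of both rank correlations were listed for each member among 20104 genes. For Ager they were Wwp1 (0.96), a ubiquitin ligase, Nckap5 (0.95) and Rasl11a (0.95). For Rtkn2 they were Wwp1 (0.96), Cldn18 (0.96), the claudin named above, and Gstt1 (0.95), a glutathione transferase. Akap5 was most like Vsig2 (0.93), 2810021J22Rik (0.90) and Cideb (0.90), and Clic5 most like Ankrd44 (0.93), Itpkb (0.90), an inositol kinase, and Pigg (0.88). Hopx was most like Gm17767 (0.92), Alad (0.90), an enzyme of heme synthesis, and Cbr3 (0.90). Emp2 was most like Cdipt (0.95), Bcam (0.93) and Usp46 (0.93), and Gprc5a most like Unc13d (0.96), Col4a3 (0.95), a basement membrane collagen of AT1 cells, and Crebrf (0.93). Aqp5 was most like Gpank1 (0.89), Dgka (0.85) and Mbd2 (0.84), Pdpn most like Patz1 (0.93), Snap47 (0.90) and Mrpl22 (0.88), and Cav1 most like Ntn4 (0.88), a netrin, Crim1 (0.87) and Agap1 (0.84). No member was among the nearest 3 genes of another, though members could be close, as Ager and Rtkn2 were (0.93 in organoids and 0.95 in tumoroids). Others were opposed, as Ager and Pdpn were (-0.76 and -0.69). The genes listed are the highest of 20104 over 10 and 8 cultures and were not tested.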

How the data were processed

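RNA of 18 cultures was sequenced. Per the submitters' processing notes and the methods, Trimmomatic 0.39, STAR 2.6.1d and RSEM 1.3.2 were used, with GRCm38 as the build. The authors deposited an expected count per gene, not normalized between samples, and TPM. Of 46603 genes, 46091 matched a GENCODE M21 symbol. The members and all lists were chosen with earlier results of these data known. Expected counts were rounded and tested in R 4.3.3 with edgeR 4.0.16 (filterByExpr, TMM factors, quasi-likelihood test, Benjamini-Hochberg over all genes tested, threshold 0.05). Levels are TPM. SE is the absolute log2 fold change divided by the square root of F. Exact permutation tests used log2(TPM + 1). The named genes were all members, the 3 genes most like each, and from each list the 2 largest changes past the threshold, with Krt7 and Lama3 added after their values were seen. Alternatives were DESeq2 1.42.0, DESeq2 size factors, no filter, at least 10 counts in every sample, limma 3.58.1 on log2(TPM + 1), a pseudocount of 0.1, other sample sets, a block by cell origin (added after the data were seen), and each culture left out. The steps were tested on simulated data. No 2 tumoroids of a group had identical counts. Precision from depth covers counting error only. The transgene itself is not analysed here.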

Additional observations from a re-analysis of the deposited data

Results flagged for a closer look

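Cultures are given here where the gap of one to the nearest other of its group, divided by the range, exceeded Dixon's 95% value. The groups share cultures, and some hold different populations, so no number expected by chance is given. Of 70 groups of values tested, 14 passed Dixon's value. Most of them concern the AT2 cultures, which were the only alveolar ones among the 4 populations given both viruses. The AT2 Ad-Cre organoids stood apart among the 4 Ad-Cre cultures for Ager (2283 TPM, next 83.8 TPM), Hopx (342 TPM, next 113 TPM), Akap5 (92.1 TPM, next 3.72 TPM), Rtkn2 (40.1 TPM, next 1.06 TPM), Clic5 (177 TPM, next 12.4 TPM) and Emp2 (612 TPM, next 233 TPM), and at the low end for Aqp5 (612 TPM, next 1383 TPM). The AT2 Ad-GFP organoids stood apart among the 4 Ad-GFP cultures for Ager (1693 TPM, next 32 TPM), Akap5 (32.8 TPM, next 1.19 TPM), Rtkn2 (26.7 TPM, next 0.39 TPM) and Clic5 (106 TPM, next 13.3 TPM).

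Mixed BASC-derived tumoroid 3 had the highest Clic5, 117 TPM with the next at 51.8 TPM, both among the 7 tumoroids from transplants and among the 6 of AT2 and mixed BASC origin. AT2-derived tumoroid 3 had the highest Pdpn of those 6, 265 TPM with the next at 117 TPM. Its fibroblast marker sum was 4247 TPM, and the part of fibroblast RNA in this value was not tested.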

How the results depend on the processing

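Of 768 recomputed values for the members, 672 kept direction and side of the threshold, 6 lost a call, 31 gained one and 59 changed sign. The cause of these changes was not tested. In distal against tracheal organoids the count of members called went from 0 to 4 with DESeq2, 1 with limma, 9 for alveolar cultures alone and 1 for mixed and bronchiolar BASC cultures alone, and to 0 to 5 with single cultures left out. Over all genes it went from 50 to 3678 with DESeq2, 20 with no filter, 143 with limma and 2 to 5686 with single cultures left out. In tumoroids against organoids it went from 0 to 1 with DESeq2, 1 for the 6 AT2- and mixed BASC-derived tumoroids against alveolar organoids, 1 for these 6 against alveolar Ad-Cre organoids and 3 for these 6 other than AT2-derived tumoroid 3 against alveolar organoids. It stayed at 0 with any single culture left out and with a block by cell origin. Over all genes it went from 3167 to 1157 with that block, 1538 for the 6 against alveolar Ad-Cre organoids and 1973 without the bronchiolar BASC organoids. In alveolar against mixed and bronchiolar organoids the count over all genes went from 7589 to 4826 without the AT2 Ad-Cre culture.

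Values that changed sign are log2 fold changes. For mixed and bronchiolar BASC cultures against tracheal ones they were Hopx (-0.20) and Emp2 (-0.13). For Ad-Cre they were Cav1 with limma (-0.0015), Hopx (0.17) and Cav1 (-0.0087) without the population block, Hopx (0.56) and Pdpn (0.0793) in distal cultures, and Ager (-0.0187), Aqp5 (-0.0356), Akap5 (-0.0659), Rtkn2 (-0.40), Cav1 (-0.0958), Emp2 (-0.0601) and Gprc5a (-0.0490) in tracheal cultures. For tumoroids against organoids they were Pdpn with limma (-0.0697), Emp2 with a block by cell origin (0.19), and Aqp5 for the 6 tumoroids against alveolar organoids (0.24), against alveolar Ad-Cre organoids (0.15, with Gprc5a at -0.0709), for the 6 other than AT2-derived tumoroid 3 against alveolar organoids (0.40) and with 1 tumoroid per title number and origin (0.0863). For AT2- against mixed BASC-derived tumoroids they were Rtkn2 (-0.0697) and Cav1 (-0.58) with limma and, with 1 tumoroid per title number, Ager (0.46), Hopx (0.36), Aqp5 (0.29), Pdpn (-0.0910), Akap5 (0.46), Cav1 (-1.32), Clic5 (0.22), Emp2 (0.17) and Gprc5a (0.56).

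With single cultures left out, the Ad-Cre change ranged from -0.35 to 0.14 for Hopx, -0.0128 to 0.13 for Aqp5 and -0.0662 to 0.0558 for Cav1. The tumoroid change ranged from -0.33 to 0.10 for Aqp5, -0.17 to 0.36 for Pdpn and -0.29 to 0.19 for Emp2. The difference by origin ranged from -0.68 to 0.15 for Ager, -0.47 to 0.30 for Aqp5, -0.15 to 0.91 for Pdpn, -0.51 to 0.66 for Rtkn2, -1.06 to 0.53 for Cav1, -0.56 to 0.0728 for Emp2 and -0.47 to 0.30 for Gprc5a. Depth limits Rtkn2 in tracheal organoids, with 9 to 20 counts. Replicate numbers follow the order of the accessions and pair no samples. No paired analysis was possible because of this, other than the blocks by population and by cell origin.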
